A study of Mus musculus with 10 samples.

Results

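The growth factor genes described here are Igf1, Vegfa, Vegfb, Pdgfa, Pdgfb, Pdgfc, Hbegf, Hgf, Tgfb1 and Osm, chosen by symbol from ligands that macrophages are known to make and that act on tumour cells, vessels or stroma. They are 10 of 55359 gene identifiers counted, and all 10 were among the 14374 genes with enough reads to test. RNA was sequenced in bulk from F4/80+ macrophages that were sorted by flow cytometry from mouse melanomas with a mutated Braf gene. The tumours were labelled resistant or rebound, and every mouse, all of them male, had been given Braf/Mek inhibitors each day until the tissue was taken. The 5 Ccr2 knockout libraries are set against 5 control libraries. The knockout mice carry the genotype label Ccr2 KO (Ccr2RFP/RFP), with the RFP allele on both copies of Ccr2. The controls are labelled Control (Ccr2RFP/+), with RFP on 1 copy, although their titles call them WT, so both groups carry the RFP allele. The controls are therefore heterozygous and not wild type, and no library came from an untreated or still sensitive tumour. The age of the mice, the tumour line and whether each library came from its own animal is not given in the sources used here, so p-values measure only the spread between these samples, which may be in part technical.

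Ccr2 is the chemokine receptor by which classical monocytes leave the bone marrow and reach inflamed tissue and tumours, where they become macrophages. Igf1, the Vegf and Pdgf ligands, Hbegf and Hgf are secreted or shed proteins that bind receptor tyrosine kinases, and these receptors signal through the MAP kinase and PI3 kinase pathways. In melanoma treated with inhibitors of the MAP kinase pathway, ligands of this kind from surrounding cells are known to be able to keep tumour cells alive. Tgfb1 and Osm are not receptor tyrosine kinase ligands: Tgfb1 acts through serine/threonine kinase receptors and Osm, an interleukin-6 family cytokine, through receptors that share gp130.

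Libraries held between 34639808 and 43360206 gene-assigned counts. Ccr2 itself was measured at 3.23, 6.28, 4.33, 3.64 and 6.13 CPM (counts scaled to a common library size) in Ccr2 knockout libraries 1 to 5, against 59.0, 89.6, 142, 129.97 and 177 CPM in control libraries 1 to 5, and fell by 4.66 on the log2 scale (edgeR quasi-likelihood test, adjusted p = 0.000139). The gene for the sorting antigen F4/80, Adgre1, was at 1836 ± 189 CPM in Ccr2 knockout and 1826 ± 114 CPM in control libraries (SD, n = 5 each), and the macrophage genes Csf1r and C1qa did not pass the test. Cd68, a lysosomal protein gene of macrophages and 1 of 12 core macrophage genes, rose to 1169 ± 115 CPM in Ccr2 knockout, against 830 ± 49.4 CPM in control libraries (1.41-fold, edgeR adjusted p = 0.0260). A list of 8 melanoma genes summed to 31.2 to 59.9 CPM in Ccr2 knockout and 32.96 to 57.3 CPM in control libraries. Of these, Tyr, Tyrp1, Dct and Mlana were under 1 CPM in every library, and Trpm1, a channel gene of pigment cells, rose to 1.27 ± 0.362 CPM in Ccr2 knockout, against 0.326 ± 0.139 CPM in control libraries (edgeR adjusted p = 0.0270). A list of 12 T and NK cell genes summed to 89.2 to 239 CPM in Ccr2 knockout and 81.5 to 186 CPM in control libraries, with the NK gene Ncr1 under 1 CPM throughout. Of that list Cd4, a T cell coreceptor gene that some macrophages also express, rose to 135 ± 35.1 CPM in Ccr2 knockout, against 61.6 ± 12.3 CPM in control libraries (edgeR adjusted p = 0.0223), without overlap. Cd4 made up most of the sum in Ccr2 knockout libraries 1, 4 and 5, at 184 of 189, 143 of 146 and 86.5 of 89.2 CPM. The mean log2 CPM of the 10 tested genes, Cd4 included, was -1.07 to 3.16 in Ccr2 knockout and 1.77 to 3.69 in control. This mean was below every control library in Ccr2 knockout libraries 1, 4 and 5, and within the control range in libraries 2 and 3. Of 10 classical monocyte genes, Ccr2 among them, 6 fell, and of 10 genes of resident-like macrophages, a list that holds Igf1 and Gas6, 5 rose. Over all genes tested, 0.543 percent fell and 0.870 percent rose. The monocyte list's mean log2 CPM was 2.67 to 4.26 in Ccr2 knockout and 6.49 to 7.34 in control libraries. Its summed level overlapped, at 1675 to 4107 CPM in Ccr2 knockout and 2545 to 6273 CPM in control. The resident-like sums, 4247 to 7115 and 3501 to 5082 CPM in that order, overlapped too. Some libraries were closer to each other than the rest: the median chi-square per gene was 2.67 between control libraries 3 and 4 and 2.77 between control libraries 1 and 2, where sampling noise alone gives 0.455, and up to 24.6 in other pairs. Within the Ccr2 knockout group the closest were libraries 2 and 5, at 6.50, and libraries 4 and 5, at 6.64. Ccr2 knockout library 2 stood near control library 3, at 5.17. Both close control pairs were summed in alternative analyses. Within the Ccr2 knockout group only libraries 4 and 5 were summed or left out together, although libraries 2 and 5 were slightly closer. For the growth factors, Tgfbr2, Gas6 and Kitl, calls lost with summed control pairs or without Ccr2 knockout libraries 4 and 5 are given.

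Of the 10 growth factor genes, 3 rose in Ccr2 knockout macrophages: Igf1, Vegfb and Pdgfc. None fell at an adjusted p under 0.05 by edgeR, DESeq2 or limma-voom, and 2 of them, Hgf and Osm, had a lower level at an unadjusted p under 0.05 by edgeR. The share of all genes tested with an unadjusted p under 0.05 was not counted. Neither this count nor those given for the gene lists below can therefore be set against a baseline. Over all 14374 genes tested, 1.41 percent passed the threshold, 0.870 percent as higher and 0.543 percent as lower in Ccr2 knockout libraries. The median log2 fold change of the 10 genes was 0.07, beside -0.0034 over all genes tested, and 6 of the 10 had a positive and 4 a negative value. For 4 of the 10 genes, namely Igf1, Vegfb, Pdgfc and Osm, no library of either genotype fell within the range of the other, while this was so for 4.70 percent of all genes tested. In RNA from sorted bulk samples, fewer cells of a type and less RNA per cell cannot be told apart, which applies to every difference below.

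**Figure D1:**
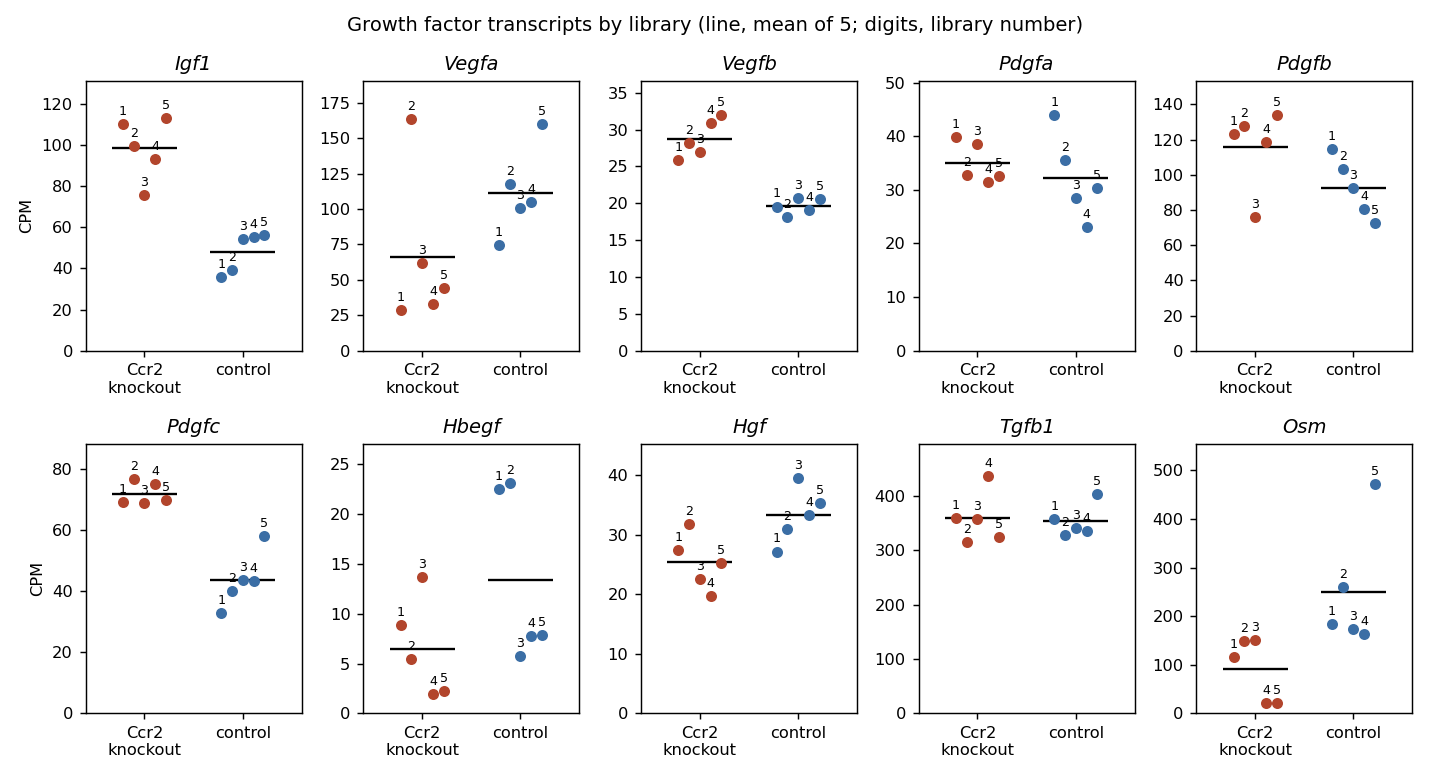
Level of each of the 10 growth factor genes in CPM, with 1 point per library marked by its library number, Ccr2 knockout on the left and control on the right of each panel, and a line at the mean of 5 libraries. The points of the groups are separate for Igf1, Vegfb and Pdgfc, which were higher in Ccr2 knockout libraries, and for Osm, which was lower without passing the test.

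Igf1 (ENSMUSG00000020053), the ligand of the IGF1 receptor and a survival and growth signal for many cells, was at 110.2, 99.3, 75.5, 93.0 and 113 CPM in Ccr2 knockout libraries 1 to 5, against 35.8, 39.1, 54.4, 55.1 and 56.4 CPM in control libraries 1 to 5. Every Ccr2 knockout library lay above every control library. The means were 98.2 ± 15.05 CPM in Ccr2 knockout and 48.2 ± 9.86 CPM in control libraries (SD, n = 5 each), a 2.04-fold difference with a log2 fold change of 1.03 (SE 0.16, 95% interval 0.68 to 1.38, edgeR adjusted p = 0.0135). The change was past the threshold when any single library was left out. It was not past it when the close control libraries were summed in pairs and counted as 1 library each, with a log2 fold change of 0.99 and an edgeR adjusted p of 0.114, nor when Ccr2 knockout libraries 4 and 5 were both left out, at 0.99 and 0.0952.

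In the list of 18 IGF genes, which covers ligands, receptors, binding proteins and the proteases that cut them, 15 were tested, and Igf1 was the single gene past the threshold in either direction by edgeR. A further 3 were lower at an unadjusted p under 0.05, and DESeq2 called 2 lower, Igfbp2 and Igfbp6. The list's median log2 fold change was -0.39, with 3 positive and 12 negative values. Igf1r, the receptor, was at 13.9 ± 6.403 CPM in Ccr2 knockout and 16.8 ± 6.88 CPM in control libraries (SD, n = 5 each, edgeR adjusted p = 0.763). The binding proteins hold IGFs in the extracellular space; Igfbp6 was at 4.22 ± 1.83 CPM in Ccr2 knockout and 9.42 ± 3.78 CPM in control libraries (edgeR adjusted p = 0.167), and Igfbp2 at 0.402 ± 0.370 and 1.87 ± 1.15 CPM in the same order (adjusted p = 0.126). Igf2, the other IGF ligand, had no read in any of the 10 libraries. Igf1 also stands in the list of resident-like macrophage genes, whose mean log2 CPM was 7.40, 7.03, 6.87, 7.06 and 6.81 in Ccr2 knockout libraries 1 to 5 and 5.72, 6.17, 5.82, 5.83 and 6.17 in control libraries 1 to 5. The part of that shift in the Igf1 result was not tested.

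Vegfb (ENSMUSG00000024962), a ligand of the receptor Flt1 that is linked to fatty acid uptake and survival of vessels more than to their sprouting, was at 25.8, 28.2, 27.0, 30.9 and 32.0 CPM in Ccr2 knockout libraries 1 to 5, against 19.6, 18.2, 20.7, 19.2 and 20.6 CPM in control libraries 1 to 5. The difference was small but the libraries of each group lay close together. The means were 28.8 ± 2.60 CPM in Ccr2 knockout and 19.6 ± 1.05 CPM in control libraries (SD, n = 5 each), a 1.46-fold difference with a log2 fold change of 0.55 (SE 0.09, 95% interval 0.35 to 0.75, edgeR adjusted p = 0.0168). The biological coefficient of variation of Vegfb was lower than that of all but 8.84 percent of genes tested. The call was lost when control library 1, 2 or 4 was left out, with edgeR adjusted p-values of 0.0510, 0.0567 and 0.0513. With the close control libraries summed in pairs the log2 fold change was again 0.55, with an adjusted p of 0.151. Without Ccr2 knockout libraries 4 and 5 the log2 fold change was 0.47, with an edgeR adjusted p of 0.0952.

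Vegfa (ENSMUSG00000023951), the main ligand for vessel growth and a target of the hypoxia response, behaved otherwise. It was at 29.0, 163, 61.6, 32.8 and 44.1 CPM in Ccr2 knockout libraries 1 to 5, against 74.8, 118, 100.4, 105 and 159.7 CPM in control libraries 1 to 5. In Ccr2 knockout, 4 of 5 libraries lay below every control library, and library 2 lay above all of them. The means were 66.1 ± 55.7 CPM in Ccr2 knockout and 112 ± 31.1 CPM in control libraries (SD, n = 5 each), with a log2 fold change of -0.75 that did not pass the test (95% interval -1.73 to 0.22, edgeR adjusted p = 0.440). Without Ccr2 knockout library 2 the log2 fold change of Vegfa was -1.41 and the edgeR adjusted p was 0.0340. That library was singled out by its Vegfa value, so this p-value is not an independent test. Other single omissions gave edgeR adjusted p-values up to 0.657. A list of 13 hypoxia response genes other than Vegfa had a mean log2 CPM of 4.93, 6.56, 5.74, 5.82 and 5.96 in Ccr2 knockout libraries 1 to 5, so the library with the most Vegfa also had the highest and the library with the least Vegfa the lowest value of this list. In control libraries 1 to 5 the hypoxia list was at 5.82, 5.83, 5.45, 5.74 and 5.31, and the library with the most Vegfa, control 5, had the lowest of these. The part of hypoxia in the Vegfa values was not tested. None of the 13 genes passed the test by edgeR (2 at an unadjusted p under 0.05, both higher), DESeq2 or limma-voom; Adm, a vessel-active peptide, was at 15.8 ± 12.7 CPM in Ccr2 knockout and 5.36 ± 2.63 CPM in control libraries (edgeR adjusted p = 0.247).

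The receptors for these ligands and the rest of the VEGF axis gave 1 gene past the threshold among 10, which was Vegfb itself. The median log2 fold change of the 10 genes was -0.83, with 2 positive and 8 negative values. DESeq2 called 2 of them higher and 2 lower. Flt1, which binds both Vegfa and Vegfb, was at 2.002 ± 1.77 CPM in Ccr2 knockout and 5.51 ± 2.08 CPM in control libraries (SD, n = 5 each, edgeR adjusted p = 0.182). Its Ccr2 knockout value was 5.12 CPM in library 3 and 1.01 to 1.76 CPM in the other 4. Without that library the log2 fold change of Flt1 was -2.17 instead of -1.46 (edgeR adjusted p = 0.0126), and DESeq2 called Flt1 lower with it. Library 3 was singled out by its value, and other single omissions gave edgeR adjusted p-values up to 0.351. Kdr, the main signalling receptor for Vegfa, was at 9.61 ± 3.08 and 13.1 ± 3.37 CPM (adjusted p = 0.415). Of the coreceptors, Nrp1 was level between Ccr2 knockout and control, at 213 ± 35.1 and 215 ± 23.2 CPM (adjusted p = 0.969), and Nrp2 was at 196 ± 68.0 and 111 ± 27.9 CPM (adjusted p = 0.116). The endothelial genes Tek and Cldn5 were under 1 CPM in every library, and 8 endothelial genes, of which Kdr is one, summed to 25.0 to 39.1 CPM in Ccr2 knockout and 38.1 to 89.3 CPM in control libraries. Their part in the Flt1 and Kdr values was not tested.

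Pdgfc (ENSMUSG00000028019), a PDGF ligand that is secreted in latent form, activated by proteases and binds mainly the receptor Pdgfra on fibroblasts and other stromal cells, was at 69.1, 76.6, 68.9, 75.1 and 69.8 CPM in Ccr2 knockout libraries 1 to 5, against 32.8, 40.1, 43.6, 43.3 and 58.0 CPM in control libraries 1 to 5. All 5 Ccr2 knockout libraries lay above the highest control library. The means were 71.9 ± 3.66 CPM in Ccr2 knockout and 43.6 ± 9.17 CPM in control libraries (SD, n = 5 each), a 1.65-fold difference with a log2 fold change of 0.72 (SE 0.13, 95% interval 0.43 to 1.01, edgeR adjusted p = 0.0260). The call was lost without control library 1, 2, 3 or 4 or without Ccr2 knockout library 4 or 5, with edgeR adjusted p-values between 0.0508 and 0.0790. With the close control libraries summed in pairs the log2 fold change was 0.65 and the adjusted p was 0.177. Without Ccr2 knockout libraries 4 and 5 the log2 fold change was 0.73 and the edgeR adjusted p was 0.133. An antisense transcript, Gm16000, overlaps Pdgfc, and counting without regard to strand gave between 0.901 and 0.943 of the strand-specific Pdgfc count.

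The stretches just upstream of the annotated starts of Vegfb and Pdgfc are shown because both genes rose while their upstream sequences differ in make-up. Each is the 150 bases before the start in RefSeq on GRCm38.p6, Vegfb at chr19:6987652-6987801 on the minus strand and Pdgfc at chr3:81036266-81036415 on the plus strand. Capitals mark the GC box, GGGCGG on either strand, and would also mark the core of a PU box, GAGGAA on either strand, which neither holds.
Vegfb: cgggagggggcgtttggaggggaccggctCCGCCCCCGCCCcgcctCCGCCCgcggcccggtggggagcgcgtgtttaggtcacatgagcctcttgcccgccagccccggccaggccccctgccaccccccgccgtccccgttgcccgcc
Pdgfc: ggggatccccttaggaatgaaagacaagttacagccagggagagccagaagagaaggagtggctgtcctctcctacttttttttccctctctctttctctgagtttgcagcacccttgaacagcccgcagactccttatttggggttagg
Over 250 bases upstream, Vegfb had a GC content of 76.4 percent with 26 CpG dinucleotides and 4 GC boxes, and Pdgfc a GC content of 50.8 percent with 3 CpG dinucleotides and no GC box. The window of Igf1, the other gene that rose, had a GC content of 52.8 percent with 5 CpG dinucleotides, no GC box and 1 PU box core, but at least the 150 bases nearest its start lie in an annotated exon of another Igf1 transcript. Among 32851 such windows of all genes the median GC content was 52.4 percent and the median number of CpG dinucleotides 6, while 32.7 percent held a GC box and 23.3 percent a PU box core. Neither motif was present in all of the 3 genes that rose. Tgfb1, which did not pass the test, had 5 GC boxes and a GC content of 75.2 percent, close to Vegfb. Matches of these letters describe the sequence and are not evidence of binding.

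The other PDGF ligands did not pass the test. Pdgfa (ENSMUSG00000025856), which also binds Pdgfra, was at 39.9, 32.7, 38.5, 31.5 and 32.5 CPM in Ccr2 knockout libraries 1 to 5, against 43.9, 35.5, 28.5, 23.1 and 30.3 CPM in control libraries 1 to 5. The groups overlapped, and the means were 35.0 ± 3.86 CPM in Ccr2 knockout and 32.3 ± 7.85 CPM in control libraries (SD, n = 5 each, log2 fold change 0.12, 95% interval -0.23 to 0.47, edgeR adjusted p = 0.760). Up to 13.7 percent of the strand-assigned reads over Pdgfa lay on the opposite strand, where the transcript 6330403L08Rik is annotated; the strand-specific count leaves these out. Pdgfb (ENSMUSG00000000489), the ligand that recruits pericytes through Pdgfrb, was at 123, 128, 75.8, 119 and 134 CPM in Ccr2 knockout libraries 1 to 5, against 115, 103, 92.4, 80.6 and 72.8 CPM in control libraries 1 to 5. In Ccr2 knockout, 4 of 5 libraries lay above all control libraries and library 3 lay among the lowest of all. The means of Pdgfb were 116 ± 23.1 CPM in Ccr2 knockout and 92.8 ± 16.9 CPM in control libraries (SD, n = 5 each, log2 fold change 0.32, 95% interval -0.05 to 0.69, edgeR adjusted p = 0.391).

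Among the 9 genes of the PDGF axis, Pdgfc was the single gene past the threshold, and the list's median log2 fold change was 0.07. The receptors rested on a single library in the Ccr2 knockout group. Pdgfra was at 76.3 CPM in Ccr2 knockout library 3 and at 3.47 to 10.7 CPM in the other 4, against 19.8 ± 11.1 CPM in control libraries (SD, n = 5). Pdgfrb was at 49.2 CPM in the same library, and averaged 16.2 ± 18.8 CPM in Ccr2 knockout and 26.9 ± 14.2 CPM in control libraries (SD, n = 5 each, edgeR adjusted p = 0.631). That library also had the highest level of a list of 9 fibroblast genes, of which Pdgfra is one: the list's mean log2 CPM was 5.94 in Ccr2 knockout library 3 and between 2.95 and 3.46 in the other 4, against 4.16 to 5.64 in control libraries. None of the 9 fibroblast genes was under 1 CPM throughout, and their summed level was 270.9 to 3417 CPM in Ccr2 knockout and 643 to 2158 CPM in control libraries. The part of these transcripts in the receptor values was not tested. Without Ccr2 knockout library 3, the log2 fold change of Pdgfra was -1.53 instead of 0.07, and neither value passed the test (edgeR adjusted p = 0.142 and 0.977).

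**Figure D2:**
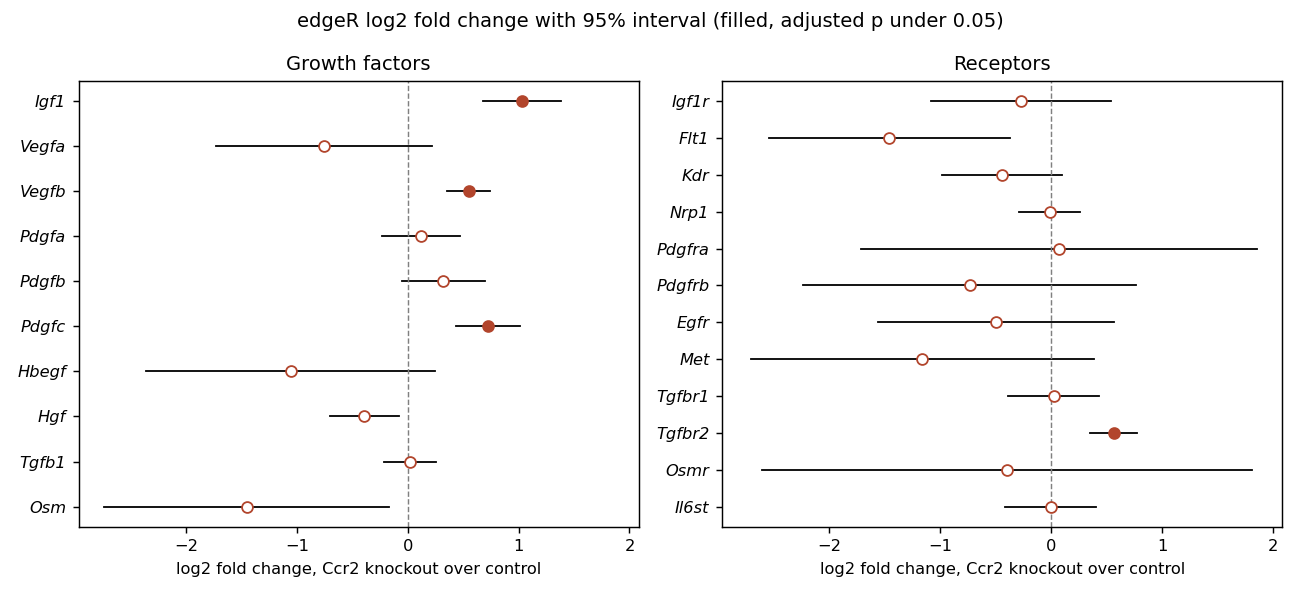
Log2 fold change, Ccr2 knockout over control, of the 10 growth factor genes and of 12 genes for their receptors, with 95% intervals from the edgeR fit and filled points for an adjusted p under 0.05. Igf1 at 1.03, Pdgfc at 0.72 and Vegfb at 0.55 lie above 0 among the ligands, and Tgfbr2 at 0.56 is the receptor gene past the threshold.

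Hbegf (ENSMUSG00000024486), which is shed from the cell surface and activates Egfr, had the lowest level per length of the 10 genes and varied widely. It was at 8.83, 5.46, 13.7, 1.91 and 2.27 CPM in Ccr2 knockout libraries 1 to 5, against 22.5, 23.1, 5.77, 7.72 and 7.89 CPM in control libraries 1 to 5. The level was lowest in Ccr2 knockout libraries 4 and 5 and highest in control libraries 1 and 2, which are one of the close pairs, and the groups overlapped. The means were 6.44 ± 4.94 CPM in Ccr2 knockout and 13.4 ± 8.62 CPM in control libraries (SD, n = 5 each, log2 fold change -1.06, 95% interval -2.36 to 0.25, edgeR adjusted p = 0.417). Without Ccr2 knockout libraries 4 and 5 the log2 fold change was -0.50 (adjusted p = 0.795). Among 20 genes of the EGF axis, 15 were tested and none passed the threshold by edgeR or limma-voom, with 1 higher and 1 lower at an unadjusted p under 0.05, while DESeq2 called 1 lower. Areg, another Egfr ligand, was at 4.34 ± 4.03 CPM in Ccr2 knockout and 11.1 ± 9.36 CPM in control libraries (adjusted p = 0.469), and Egfr itself at 1.84 ± 1.13 and 2.60 ± 1.24 CPM (adjusted p = 0.649). Nrg1, a ligand of ErbB3 and ErbB4 that is known for its action on melanoma cells under BRAF inhibition, was at 1.14 ± 1.01 CPM in Ccr2 knockout and 6.49 ± 3.56 CPM in control libraries (edgeR adjusted p = 0.163). Its library range was 0.026 to 2.50 CPM in Ccr2 knockout and 2.67 to 10.5 CPM in control. DESeq2 called Nrg1 lower, with a log2 fold change of -2.49 and a DESeq2 adjusted p of 0.0197.

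Hgf (ENSMUSG00000028864), the ligand of Met and a stromal factor known to protect melanoma cells from RAF inhibition, was at 27.4, 31.8, 22.5, 19.8 and 25.2 CPM in Ccr2 knockout libraries 1 to 5, against 27.2, 31.0, 39.4, 33.3 and 35.2 CPM in control libraries 1 to 5. Ccr2 knockout libraries 3, 4 and 5 lay below every control library, and libraries 1 and 2 lay among the controls. The means were 25.3 ± 4.62 CPM in Ccr2 knockout and 33.2 ± 4.58 CPM in control libraries (SD, n = 5 each). The log2 fold change of -0.39 (95% interval -0.70 to -0.08) had an unadjusted p of 0.0189 and did not pass after adjustment over all genes (edgeR adjusted p = 0.217). The HGF axis list holds 10 genes, of which 7 were tested; besides Met these are the proteases that activate Hgf and their inhibitors. None passed by edgeR (1 higher and 2 lower at an unadjusted p under 0.05), while DESeq2 called 1 higher and limma-voom 1 lower. Plau, the urokinase protease, was at 388 ± 89.3 CPM in Ccr2 knockout and 227 ± 57.1 CPM in control libraries (edgeR adjusted p = 0.103). Met was at 1.38 ± 1.97 CPM in Ccr2 knockout and 3.09 ± 0.7099 CPM in control libraries, with 4.89 CPM in Ccr2 knockout library 3 and 0.261 to 0.674 CPM in the other 4. Its log2 fold change was -1.16 (edgeR adjusted p = 0.451), and -2.61 without that library (adjusted p = 0.00484). Library 3 was singled out by its Met value, and other single omissions gave edgeR adjusted p-values up to 0.651.

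Tgfb1 (ENSMUSG00000002603), which restrains proliferation of many cells and drives matrix production and immune suppression, had the narrowest range of the 10 genes over the 10 libraries. It was at 359, 316, 358, 437 and 325 CPM in Ccr2 knockout libraries 1 to 5, against 358, 329, 341, 336 and 404 CPM in control libraries 1 to 5. The control range lay within that of Ccr2 knockout, and the highest of the 10 libraries was 1.38 times the lowest. The means were 359 ± 47.8 CPM in Ccr2 knockout and 354 ± 30.3 CPM in control libraries (SD, n = 5 each, log2 fold change 0.02, edgeR adjusted p = 0.941). The 95% interval of that difference, -0.21 to 0.25, leaves room for changes of that size in either direction. Its sign turned under some settings, for example to -0.02 without Ccr2 knockout libraries 4 and 5.

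One receptor for Tgfb1 did rise. Tgfbr2, the receptor subunit that binds the ligand, was at 612, 565, 593, 685 and 772 CPM in Ccr2 knockout libraries 1 to 5, against 442, 435, 412, 456 and 440.0 CPM in control libraries 1 to 5. No Ccr2 knockout library was as low as any control library. The means of Tgfbr2 were 645 ± 83.4 CPM in Ccr2 knockout and 437 ± 16.04 CPM in control libraries (SD, n = 5 each), with a log2 fold change of 0.56 (SE 0.10, edgeR adjusted p = 0.0214). The call was lost without control library 1, 2, 3 or 4, with adjusted p-values between 0.0552 and 0.0672, with the close control libraries summed in pairs (0.171) and without Ccr2 knockout libraries 4 and 5, where the log2 fold change was 0.45 (0.0881). Tgfbr1, the signalling subunit, was level at 207 ± 58.7 CPM in Ccr2 knockout and 204 ± 24.6 CPM in control libraries (adjusted p = 0.969). Of 21 genes of the TGF-beta axis, 20 were tested and Tgfbr2 was the single gene past the threshold by edgeR; the median log2 fold change was -0.07, and DESeq2 also called 2 and limma-voom 1 of them lower. Among those that did not pass by edgeR, Thbs1, which can activate latent TGF-beta, was at 219 ± 171 CPM in Ccr2 knockout and 1034 ± 594 CPM in control libraries (adjusted p = 0.0947). The edgeR adjusted p of Thbs1 was 0.0437 without Ccr2 knockout library 3, the highest of its group, and up to 0.180 in other single omissions. Tgfbi, a matrix protein induced by TGF-beta, was at 2362 ± 199 CPM in Ccr2 knockout and 3569 ± 875 CPM in control libraries (adjusted p = 0.108).

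Osm (ENSMUSG00000058755), a cytokine of activated macrophages and neutrophils that drives inflammatory responses in fibroblasts and endothelium, had the log2 fold change furthest from 0 among the 10 genes and the widest range over libraries. It was at 116, 149, 150.1, 21.4 and 21.5 CPM in Ccr2 knockout libraries 1 to 5, against 184, 260.0, 174, 162 and 473 CPM in control libraries 1 to 5. Every Ccr2 knockout library lay below every control library, but libraries 4 and 5 lay far below the other 3 of their group and control library 5 far above the other controls. The means were 91.6 ± 65.4 CPM in Ccr2 knockout and 250.5 ± 129.9 CPM in control libraries (SD, n = 5 each), with a log2 fold change of -1.45 (SE 0.58, 95% interval -2.74 to -0.16) and an unadjusted p of 0.0305. The difference did not pass after adjustment over all genes (edgeR adjusted p = 0.268). Without Ccr2 knockout libraries 4 and 5, the log2 fold change of Osm was -0.85 (adjusted p = 0.428).

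The same libraries stood apart in genes that cells switch on within minutes of a stimulus. A list of 18 early response genes had a mean log2 CPM of 7.99, 7.96, 8.22, 6.03 and 6.15 in Ccr2 knockout libraries 1 to 5, against 8.04, 8.07, 8.02, 8.02 and 8.82 in control libraries 1 to 5. As for Osm, Ccr2 knockout libraries 4 and 5 were the lowest and control library 5 was the highest. None of these 18 genes passed the test by edgeR (4 lower at an unadjusted p under 0.05), DESeq2 or limma-voom; Fos was at 904 ± 520 CPM in Ccr2 knockout and 1757 ± 673 CPM in control libraries (SD, n = 5 each, edgeR adjusted p = 0.315). The mean log2 CPM of the 8 tested of 10 neutrophil genes was 3.25, 0.68, 3.26, 0.01 and -0.16 in Ccr2 knockout libraries 1 to 5. It was 4.53, 4.28, 1.42, 3.28 and 5.46 in control libraries 1 to 5. All 10 summed to 116 to 222 CPM in Ccr2 knockout and 164 to 612 CPM in control libraries. The neutrophil surface gene Ly6g was under 1 CPM throughout. The part of early response or of neutrophil transcripts in the Osm values was not tested. Of 15 genes of the OSM and gp130 axis, 13 were tested and none passed by edgeR (2 lower at an unadjusted p under 0.05), DESeq2 or limma-voom. Il6st, which encodes gp130, was level at 62.8 ± 18.1 CPM in Ccr2 knockout and 63.1 ± 9.95 CPM in control libraries (adjusted p = 0.991), and Osmr, the specific receptor, was at 1.18 ± 1.61 and 1.56 ± 1.35 CPM (adjusted p = 0.875). Socs3, a feedback inhibitor induced by gp130 cytokines, was at 759 ± 450.1 CPM in Ccr2 knockout and 1328 ± 353 CPM in control libraries (adjusted p = 0.387), with 329.5 and 238 CPM in Ccr2 knockout libraries 4 and 5.

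**Figure D3:**
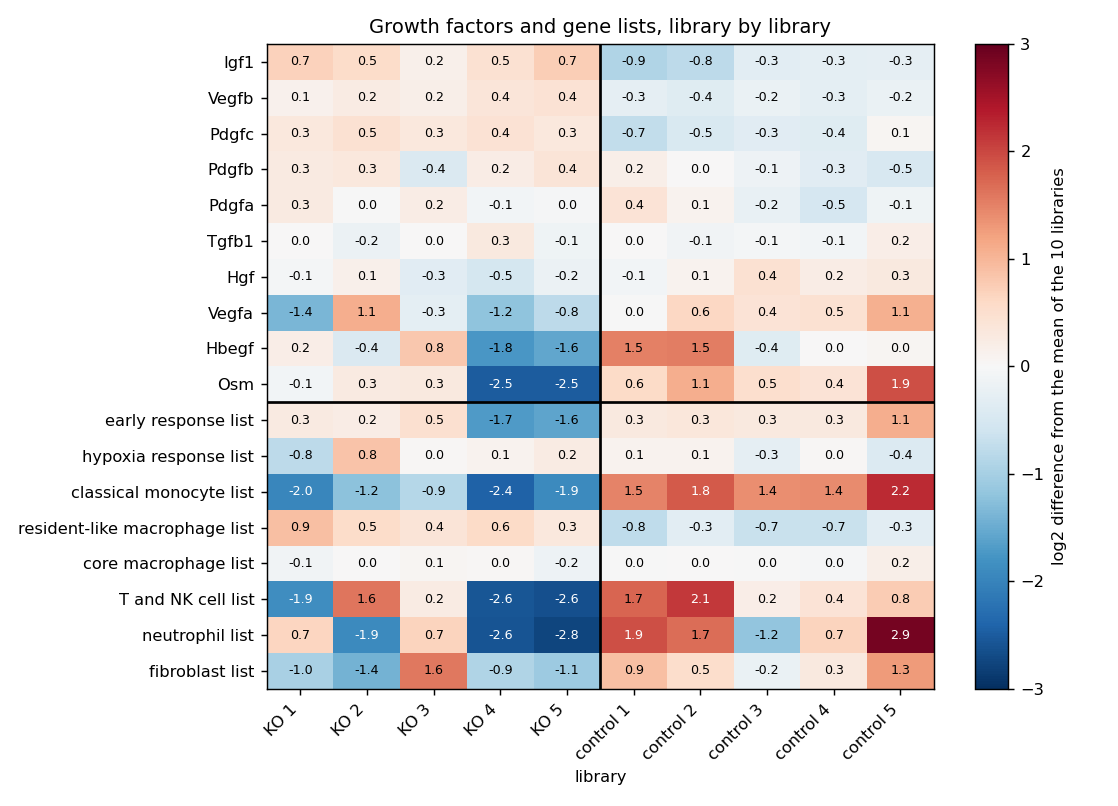
Log2 level of each growth factor gene and mean log2 level of 8 gene lists in each library, Ccr2 knockout libraries on the left and control libraries on the right, shown as the difference from the mean of the 10 libraries. Ccr2 knockout libraries 4 and 5 are low for Osm, Hbegf and the early response list together, and Ccr2 knockout library 3 is high for the fibroblast list.

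Transcripts of short-lived messages often carry AU-rich elements in their 3′ untranslated regions, at which RNA-binding proteins set decay. The heptamer TATTTAT was searched in the longest annotated 3′ untranslated region of each gene in GENCODE M21 on GRCm38, and 30.1 percent of 12759 tested genes with such a region held it. It was found 4 times in Hgf, 3 times each in Osm and Vegfa, 2 times in Hbegf and once each in Pdgfb and Pdgfc, and not in Igf1, Vegfb, Pdgfa or Tgfb1. The first site of each of a pair of variable genes, Osm and Vegfa, is shown beside that of the less variable Hgf. Only this first heptamer is in capitals, and in Hgf another copy, left in lower case, begins at its last base.
Osm: aagacacttTATTTATccgaatgtc
Vegfa: aatttcaacTATTTATgagatgtat
Hgf: tttgttgttTATTTATatttattat
These are bases 578 to 602 of the 3′ untranslated region of transcript Osm-201, 1237 to 1261 of Vegfa-201 and 787 to 811 of Hgf-204. The 3 genes with the widest range over the 10 libraries all held the heptamer: the highest library was 22.1 times the lowest for Osm, 12.1 times for Hbegf and 5.63 times for Vegfa. The heptamer did not sort the 10 genes by range. Hgf, with the most copies, stood among the 7 genes whose highest library was at most 3.16 times the lowest. So did Pdgfb and Pdgfc, which also held it. The part of the heptamer in these ranges was not tested. The biological coefficient of variation was higher than that of 93.2 percent of genes tested for Hbegf, 92.5 percent for Osm and 85.8 percent for Vegfa, and between the 8.84 and the 43.2 percentile for the other 7.

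Levels can be compared between genes only per length, here as CPM per kilobase of annotated exon. In Ccr2 knockout libraries the order by mean was Tgfb1 at 71.2, Osm at 40.3, Pdgfb at 27.8, Vegfb at 17.9, Vegfa at 15.4, Pdgfc at 14.1, Pdgfa at 11.2, Igf1 at 9.92, Hgf at 3.53 and Hbegf at 1.33 CPM per kilobase. Only the neighbours Pdgfc and Pdgfa, and Igf1 and Hgf, did not overlap in their library ranges. In control libraries the order was Osm at 110.2, Tgfb1 at 70.1, Vegfa at 26.03, Pdgfb at 22.3, Vegfb at 12.2, Pdgfa at 10.3, Pdgfc at 8.56, Igf1 at 4.86, Hgf at 4.63 and Hbegf at 2.77 CPM per kilobase. There the neighbours Tgfb1 and Vegfa, Pdgfb and Vegfb, and Pdgfc and Igf1 did not overlap. By these means, Osm stood below Tgfb1 and Vegfa below Pdgfb in Ccr2 knockout, and above them in control libraries, while Pdgfc stood above Pdgfa in Ccr2 knockout and below it in control libraries. The exon length decides part of this order: on the length of the principal transcript, an alternative chosen after seeing the data, Vegfa was at 101 in Ccr2 knockout and 170.6 CPM per kilobase in control libraries, and Igf1 at 58.7 and 28.8. On that length Osm was below Tgfb1 in both groups and Vegfa above Pdgfb in both, so these exchanges depend on the length used. Pdgfc stood above Pdgfa in Ccr2 knockout and below it in control libraries here too. The principal length was 654 bases for Vegfa and 1673 bases for Igf1. Their transcripts with the longest 3′ untranslated region, Vegfa-201 and Igf1-202, have 2765 and 7052 bases. Levels on those lengths were not computed. Among 14345 genes with a length, the 10 lay between the 37.6 percentile of level per kilobase, for Hbegf, and the 95.3 percentile, for Osm. The next lowest was Hgf, at the 51.1 percentile.

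**Figure D4:**
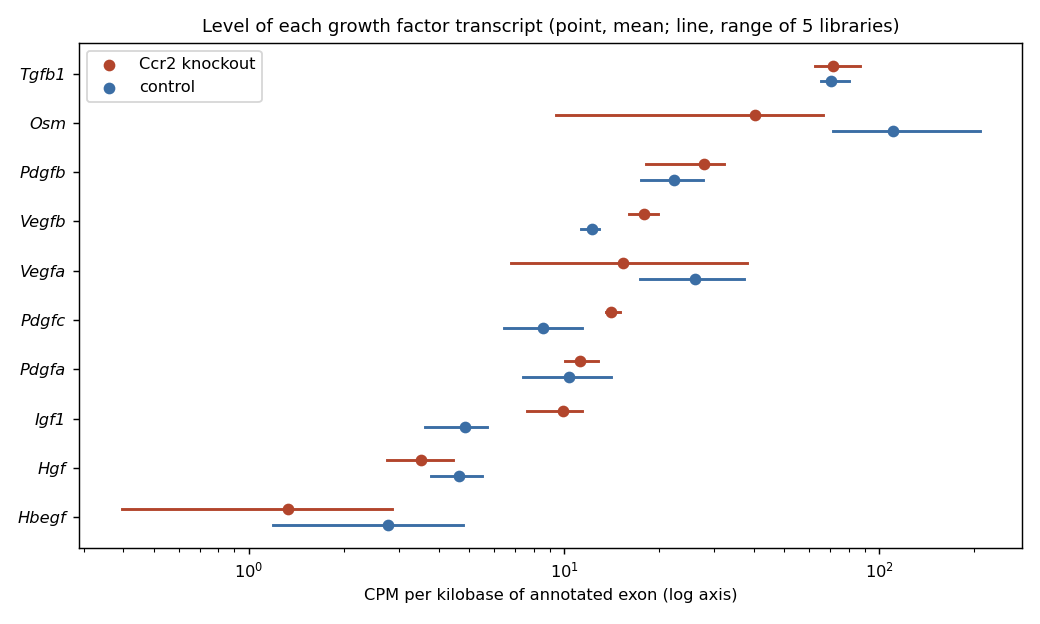
Mean level per kilobase of annotated exon of each growth factor gene on a log axis, with the range over the 5 libraries of each group, Ccr2 knockout above control for each gene. Tgfb1 and Osm lie at the top and Hbegf at the bottom in both groups.

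To place the members beside other ligands of the same receptor class, 55 receptor tyrosine kinase ligands were ranked by level per kilobase, of which 37 were tested. Gas6, a bridging ligand by which the receptors Axl and Mertk recognise dying cells, ranked first in both groups on annotated exon length, at 229 CPM per kilobase in Ccr2 knockout and 103 CPM per kilobase in control libraries. Gas6 rose to 626, 466, 678, 634 and 515 CPM in Ccr2 knockout libraries 1 to 5, against 262, 261, 226, 223 and 345 CPM in control libraries 1 to 5, with no overlap. Its log2 fold change was 1.15 (SE 0.15, edgeR adjusted p = 0.00459), and with the close control libraries summed in pairs it was 1.08 (adjusted p = 0.0909). Pros1, the other ligand of these receptors, was at 123 ± 32.1 CPM in Ccr2 knockout and 84.1 ± 10.4 CPM in control libraries (SD, n = 5 each, adjusted p = 0.142). Kitl, the ligand of Kit and a survival factor for melanocytes and mast cells, also rose, to 7.09 ± 2.50 CPM in Ccr2 knockout, against 2.97 ± 0.600 CPM in control libraries (SD, n = 5 each, log2 fold change 1.26, SE 0.25, edgeR adjusted p = 0.0361). That call was lost without any single control library, and without Ccr2 knockout library 4 or 5, with adjusted p-values between 0.0588 and 0.0978. It was also lost with the close control libraries summed in pairs (adjusted p = 0.192) and without both Ccr2 knockout libraries 4 and 5 (0.135). Of 31 receptor tyrosine kinase ligands outside the axes above, 19 were tested, 2 rose (DESeq2 called 4 higher), and none fell by edgeR (2 lower at an unadjusted p under 0.05), DESeq2 or limma-voom. Among the 8 of the 10 growth factors that bind receptor tyrosine kinases, Pdgfb held rank 3 in both groups, Igf1 rank 8 in Ccr2 knockout and 10 in control, Pdgfc rank 6 and 9, and Vegfa rank 5 and 2, in the same order. On the length of the principal transcript, Vegfa held rank 2 in Ccr2 knockout and 1 in control, above Gas6 there, and Igf1 rank 3 and 4. Those ranks rest on lengths of 654 bases for Vegfa and 1673 bases for Igf1, which are shorter than other annotated transcripts of these genes.

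For each growth factor gene that rose, the 3 genes with the most similar course over the 10 libraries were found by the mean absolute difference between centred log2 CPM profiles. Nearest to Igf1 were 2810025M15Rik, Maoa, which encodes monoamine oxidase A, and Pkp4, a junction protein gene, with differences of 0.125, 0.128 and 0.152 on the log2 scale. Nearest to Vegfb were Nfic, a transcription factor gene, Sec14l1 and Txnrd3, with 0.0545, 0.0712 and 0.0815. Nearest to Pdgfc were Stk19-ps1, Abcd4 and Slc9a9, with 0.0881, 0.0910 and 0.0985. No gene stands in more than one of these sets.

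**Figure D5:**
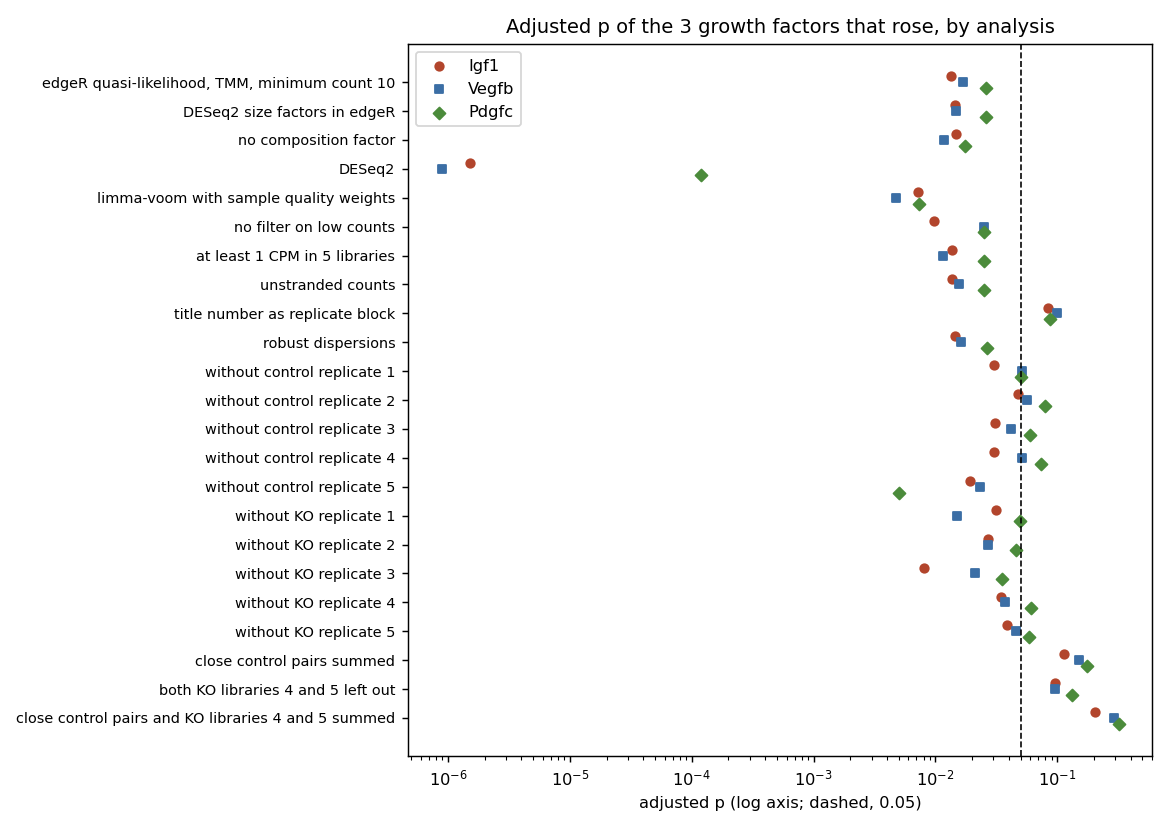
Adjusted p of Igf1, Vegfb and Pdgfc, on a log axis, in the fit reported here and in 22 other analyses, with a line at 0.05. Igf1 lies under the line whenever a single library is left out. All 3 genes lie above it with the close control libraries summed and without Ccr2 knockout libraries 4 and 5. They also do with the control pairs and Ccr2 knockout libraries 4 and 5 summed, and with title numbers as a block.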

How the data were processed

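The authors deposited raw read counts for each gene and strand, made with STAR on GRCm39 per the submitters' processing notes; which STAR version and annotation is not given in the sources used here. Polyadenylated RNA went into directional libraries, per the labels' protocols. The reverse-strand column was used, since it held 96.2% to 96.5% of strand-assigned counts. Rows for unmapped (6.87% to 8.07%), ambiguous (1.83% to 2.10%) and unassigned reads (3.63% to 5.68%) entered neither totals nor tests; multimapping reads stood at 0. A combined table with 10 unnamed columns was not used. Symbols matched 52083 of 55359 identifiers.

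Testing used edgeR 4.0.16 with R 4.3.3 (filterByExpr, minimum count 10, TMM, quasi-likelihood F-test, Benjamini-Hochberg adjustment over all genes tested, threshold 0.05), checked on simulated counts. CPM used TMM-scaled library sizes; the SE is the log2 fold change over the square root of F. Log2 profiles used a prior count of 2. DESeq2 1.42.0 and limma-voom (limma 3.58.1) were alternatives. Gene lengths came from GENCODE M21 on GRCm38 and promoters from RefSeq. The members and lists were chosen with earlier results of these data known. Named were the members, their 12 receptors, Ccr2, the genes past the threshold in each of 10 lists or else up to 4 with the smallest p, and the nearest 3 profiles at a mean of 2 CPM or more.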

Additional observations from a re-analysis of the deposited data

Results flagged for a closer look

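In 14 of 138 groups of 5 libraries, over 69 genes, the gap between the most extreme library and its neighbour was large. It exceeded 0.71 of the group's range, Dixon's 95% critical value. Chance flags about 1 in 20 groups only where values are normally distributed and groups independent. The genes here share libraries and some were chosen by p, so that rate is no baseline for this count. Among the growth factors the flagged groups were Vegfa in Ccr2 knockout (share of the range 0.757, library 2 at 163 CPM and the next at 61.6 CPM) and Pdgfb in Ccr2 knockout (0.742, library 3 at 75.8 CPM and the next at 119 CPM).

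Ccr2 knockout library 3 was the high library for Flt1 (0.818), Pdgfra (0.901), Pdgfrb (0.781), Met (0.911), Vegfc (0.861), Pdgfd (0.819) and Il34 (0.782), and its fibroblast list was the highest of the 10 libraries, at a mean log2 CPM of 5.94. In the same group, library 4 was high for Igfbp2 (0.799) and library 2 for Flt4 (0.722). Without the high library, Vegfc had a log2 fold change of -2.14 (edgeR adjusted p = 0.0442) and Flt4 of -2.40 (edgeR adjusted p = 0.0368), and neither passed with it. Other single omissions gave edgeR adjusted p-values up to 0.526 for Vegfc and 0.255 for Flt4. A library picked by its value makes the p-value without it no independent test. Control library 5 was high for Thbs1 (0.801), Artn (0.717) and Junb (0.888), the last an early response gene at 2756 CPM there and at most 1418 CPM in the other controls.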

How the results depend on the processing

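The count of genes past the threshold, 203 as reported, was 820 by DESeq2, 446 by limma-voom with sample weights, 55 with the title number as a replicate block, 29 with the close control pairs summed, 50 without Ccr2 knockout libraries 4 and 5, and 8 with the control pairs and those libraries summed; leaving out 1 library gave 62 to 267. The count of growth factors called higher, 3, was 0 with the block and in each of the last 3 of these analyses, and 1 to 3 when 1 library was left out; the count called lower, 0, was 0 to 1, the 1 being Vegfa without Ccr2 knockout library 2.

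With the block, the adjusted p was 0.0835 for Igf1, 0.0992 for Vegfb and 0.0880 for Pdgfc. Correlations between the deviations of same-numbered libraries ran from -0.53 to 0.34, and 1 of 5 matched its own number best. So few values cannot decide whether the numbers pair the samples. Igf1, Vegfb and Pdgfc were higher in Ccr2 knockout in all 22 alternatives.

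Of 69 named genes, 63 had the same sign throughout. Of 12 called, 1 (Ccr2) passed the threshold in all 22 alternatives, and 18 uncalled genes passed it in at least 1. None of the 6 that turned was called. Il6st (-0.01) became 0.0013 with DESeq2 size factors or DESeq2, 0.028 without composition factors, 0.0075 without a filter and 0.0057 unstranded. It became 0.0027 with control pairs summed, 0.17 without Ccr2 knockout libraries 4 and 5, and 0.062 with control pairs and those libraries summed. Single omissions gave -0.19 to 0.11. Nrp1 became 0.0092 without composition factors and 0.016 by limma-voom (single omissions -0.087 to 0.051). Pdgfra became -1.09 by limma-voom, -1.02 with the block and -0.13 with control pairs summed (-1.53 to 0.43). Tgfbr1 became -0.019 with the block and -0.033 without libraries 4 and 5 (-0.11 to 0.14). Tgfb1 became -0.0042 with control pairs summed, -0.024 without libraries 4 and 5 and -0.030 with control pairs and those libraries summed (-0.045 to 0.087). Osmr became 0.30 without libraries 4 and 5 (-1.56 to 0.0029). The causes were not tested. Low counts limit such genes as Pdgfd, Pappa, Artn, Flt4 and Vegfc.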
